A study of Arabidopsis thaliana with 6 samples.

Results

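Auxin is read in *Arabidopsis* by 3 families of genes, and their transcripts were compared here between *vip3-1* and wild-type (WT) shoot apices. The genes were taken by locus and not by their values. They comprise 29 Aux/IAA genes (*IAA1* to *IAA20* and *IAA26* to *IAA34*), 15 ARF genes (*ARF1* to *ARF11* and *ARF16* to *ARF19*) and 6 receptor genes (*TIR1* and *AFB1* to *AFB5*). All 50 were found among the 33554 genes of the deposited tables, and 46 had enough counts to be tested. The ARF genes were further divided into 5 activators (*ARF5*, *ARF6*, *ARF7*, *ARF8* and *ARF19*) and 10 repressors.

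VIP3 is a subunit of the Paf1 complex, which travels with RNA polymerase II during transcription, and the labels call *vip3-1* a null of its gene. The *vip3-1* and WT plants, all in the Col-0 background, were raised in short days (21°C) before continuous light (16°C). Apices of the primary inflorescence were dissected so that no flowers older than stage 4 remained, and tubes of 30 to 35 apices were frozen, 6 tubes for each genotype. RNA of 2 tubes was combined for each library, giving 3 libraries of *vip3-1* and 3 of WT, which the methods call technical triplicates. Neither labels nor methods say whether different tubes held plants of separate sowings, so p-values here set a change against the spread of apex pools, which may be technical. In these bulk samples, fewer cells of a type and less RNA per cell cannot be told apart.

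The TIR1/AFB proteins are F-box proteins that bind auxin together with an Aux/IAA protein, within an SCF ubiquitin ligase. Aux/IAA proteins are short-lived repressors that hold ARF transcription factors inactive with the help of TOPLESS (TPL) co-repressors, and auxin leads to their destruction through a short degron. ARF proteins bind auxin response elements in promoters, where activator ARFs drive transcription once the Aux/IAA proteins are gone. Many Aux/IAA genes are themselves induced by auxin. In the inflorescence apex this pathway sets where flowers form, and ARF5 (MONOPTEROS) is needed for flower initiation.

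The degron is what makes an Aux/IAA protein a substrate of the receptors, so its coding stretch is shown for *IAA17* and *IAA14*, whose called changes were the largest, for their close relatives *IAA16* and *IAA7*, for *IAA8* and *IAA9*, the most abundant members of the family, and for *IAA2* and *IAA11*, which fell. The capitals mark the codons of the core, which reads glycine, tryptophan, proline, proline and then valine or isoleucine, or leucine in *IAA10* alone. The sequences were read from the RefSeq genome TAIR10.1 in the direction of the gene, and the deposited tables were made on TAIR10.
IAA17 (chr1:1136941-1136967, plus strand): gttgtgGGATGGCCACCGGTGagatca
IAA14 (chr4:8349478-8349504, minus strand): gtggtgGGTTGGCCACCGGTGaggaac
IAA16 (chr3:1289730-1289756, minus strand): gttgtgGGATGGCCACCGGTAcgatct
IAA7 (chr3:8195571-8195597, plus strand): gtggtgGGATGGCCACCTGTGaggaac
IAA8 (chr2:9637728-9637754, plus strand): gttgttGGTTGGCCTCCAATCagatca
IAA9 (chr5:26255107-26255133, plus strand): attgtcGGTTGGCCTCCAGTGagatcc
IAA2 (chr3:8181387-8181413, minus strand): atcgttGGTTGGCCACCAGTGagatct
IAA11 (chr4:14143006-14143032, plus strand): gttgtgGGATGGCCACCAATAaggact
A core of this kind was found in the coding sequence of 23 of the 29 Aux/IAA genes. It was not found in *IAA20*, *IAA30*, *IAA31*, *IAA32*, *IAA33* and *IAA34*.

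Several members are known targets of small RNAs, and the pairing is shown because members that share a small RNA did not all move together. The mature miRNAs are given first, as DNA letters, with the seed (bases 2 to 8) in capitals. miR160 is encoded at 3 loci with the same mature sequence, and miR393 at 2.
miR160a-5p (chr2:16340282-16340302, plus strand): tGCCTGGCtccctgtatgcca
miR167a-5p (chr3:8108090-8108110, plus strand): tGAAGCTGccagcatgatcta
miR393a-5p (chr2:16652111-16652132, plus strand): tCCAAAGGgatcgcattgatcc
The best matching sites in the targets follow, all within coding exons, in the direction of the gene. Capitals mark bases that do not pair with the miRNA, with G opposite U counted as unpaired.
ARF10, miR160 (chr2:12115741-12115761, plus strand): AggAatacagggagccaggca
ARF16, miR160 (chr4:14704141-14704161, minus strand): GggTTtacagggagccaggca
ARF17, miR160 (chr1:29274189-29274209, plus strand): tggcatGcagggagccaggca
ARF6, miR167 (chr1:10686478-10686498, minus strand): GagatcaGgctggcagcttGT
ARF8, miR167 (chr5:14633841-14633861, plus strand): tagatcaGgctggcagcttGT
TIR1, miR393 (chr3:23273727-23273748, minus strand): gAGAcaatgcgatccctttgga
AFB1, miR393 (chr4:1405341-1405362, minus strand): gAGAcCatgcgatccctttgga
AFB2, miR393 (chr3:9870237-9870258, plus strand): gAaAcaatgcgatccctttgga
AFB3, miR393 (chr1:4369085-4369106, minus strand): gAaAcaatgcgatccctttgga
Among all 50 genes, these 9 had the fewest unpaired bases to the miRNA in question, between 1 and 4, and the best stretch in any other member had at least 6.

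Libraries of *vip3-1* held between 51944080 and 53519921 counts and those of WT between 50040047 and 69033269. *VIP3* itself was at 5.96, 7.41 and 7.30 CPM (counts scaled to the size of the library) in *vip3-1* and at 40.8, 41.7 and 40.1 CPM in WT, a log2 fold change of −2.57. WT replicate 3 stood apart from the other WT libraries in the summed level of 12 anther and pollen wall genes, which was between 43.4 and 122 FPKM (fragment numbers per transcript length and library size) in *vip3-1*, and was 60.8, 80.8 and 1079 FPKM in WT. All of these genes other than *ATA7* and *MS1* were highest in that library. Of the 12 genes, 11 were tested and 1 rose (*ATA7*). Summed levels of 10 shoot apex markers were 1077 to 1178 FPKM in *vip3-1* and 741 to 908 FPKM in WT (7 rose, 1 fell). WT replicate 3 was the lowest of these. The 8 vascular markers summed to 36.9 to 53.5 FPKM in *vip3-1* and 17.4 to 23.9 FPKM in WT (4 rose), and 6 green leaf markers to 2947 to 3604 FPKM in *vip3-1* and 4714 to 7849 FPKM in WT (2 fell). The 9 carpel and ovule markers summed to 93.8 to 102 FPKM in *vip3-1* and 70.0 to 97.7 FPKM in WT (8 tested, 1 rose). None of 4 root markers had enough counts to be tested, with *RHD6* and *EXPA7* at no more than 3 counts in every library. Among all 20690 genes tested, 14.6% rose and 16.1% fell at an adjusted p under 0.05 in edgeR, the threshold used for these markers too. The part of tissue composition in the results below was not tested.

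More of the auxin signalling genes rose than fell in *vip3-1*. Of the 46 tested genes, 14 rose and 4 fell at an adjusted p under 0.05 in edgeR's quasi-likelihood test. This is 39.1% of them, beside 30.7% of all 20690 genes tested, of which 14.6% rose and 16.1% fell. The median log2 fold change over the 46 genes was 0.20, against −0.02 over all genes tested, and 31 of the 46 were above 0, most of them not called. Of these, *IAA3*, *ARF4* and *ARF6* turned sign without TMM normalization. Changes were small. *IAA17* and *IAA14* alone exceeded a log2 fold change of 1 in either direction among the called members, and the other called changes lay between −0.89 and 0.60. All 3 *vip3-1* libraries were above every WT library for 21 genes (beside 25.3% of all genes tested) and below every WT library for 7 (beside 27.3%), together 60.9% of the tested members beside 52.5% of all genes. Scaling by total counts without TMM normalization put the median of all genes at −0.11 instead of −0.02, and 13 members were then called (beside 34.1% of all genes). Of these 13, 61.5% were higher, against 77.8% of the 18. Over all genes called, the share that was higher moved too, to 32.2% without TMM from 47.7% with it. A fit that blocked on replicate number called 20 members and 35.7% of all genes.

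By family, 3 of the 6 receptor genes rose and none fell, with a median log2 fold change of 0.27. Of the 25 Aux/IAA genes tested, 7 rose and 3 fell, with a median of 0.24. Among the 15 ARF genes, 4 rose and 1 fell, with a median of 0.12. In either direction, 33.3% of the ARF genes and 40.0% of the tested Aux/IAA genes were called, beside 30.7% of all genes tested. The called share of the ARF genes was thus close to that of all genes, and the receptor share rests on 6 genes. None of these shares was tested against that of all genes. Levels per transcript length were also summed over each family. Receptors summed to 406, 417 and 430 FPKM in *vip3-1* and to 331, 306 and 358 FPKM in WT. Aux/IAA genes summed to 1314, 1252 and 1233 FPKM in *vip3-1* and to 1085, 996 and 927 FPKM in WT. ARF genes summed to 1019, 1103 and 1125 FPKM in *vip3-1* and to 866, 953 and 838 FPKM in WT. All 3 *vip3-1* libraries thus lay above all WT libraries in each family, and the ratios of the mean sums were 1.26 for receptors, 1.26 for Aux/IAA genes and 1.22 for ARF genes, with no test between the families. With 3 libraries against 3, an exact permutation test cannot go below p = 0.1, and none was made on these sums.

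Among the receptors, *AFB1* and *AFB3* showed the largest rises. *AFB1* (AT4G03190), whose product is known in roots for fast responses to auxin, was at 181, 198 and 184 CPM in *vip3-1* and at 149, 135 and 124 CPM in WT. The groups did not overlap, and *AFB1* rose by 0.47 ± 0.087 on the log2 scale (± standard error here and below, adjusted p = 0.0111). *AFB3* (AT1G12820), a close relative of *AFB2*, was at 114, 120.0 and 131 CPM in *vip3-1* and at 86.7, 90.5 and 92.7 CPM in WT. It rose by 0.44 ± 0.072 on the log2 scale (adjusted p = 0.00816), again with no overlap, and was called under all 14 alternative settings. *AFB2* (AT3G26810) was at 97.8, 96.6 and 96.5 CPM in *vip3-1* and at 82.0, 82.6 and 77.8 CPM in WT, with very close values within each genotype. Its rise was 0.26 ± 0.056 (adjusted p = 0.0161). The call of *AFB1* was lost without *vip3-1* replicate 2 (adjusted p = 0.0533). That of *AFB2* was lost without WT replicate 1 (0.0514) or without *vip3-1* replicate 1 (0.0718), 2 (0.0713) or 3 (0.0559), without TMM normalization (0.17, adjusted p = 0.0513) and in the 3 limma fits on log2 FPKM (adjusted p from 0.183 to 0.234).

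The other receptors did not pass the test. *TIR1* (AT3G62980), the receptor first identified, was at 213, 244 and 262 CPM in *vip3-1* and at 168, 174 and 248 CPM in WT. WT replicate 3 lay within the range of the *vip3-1* libraries, and the log2 fold change was 0.29 ± 0.168 (adjusted p = 0.230). *AFB5* (AT5G49980), a receptor that also binds the herbicide picloram, was at 172, 191 and 204 CPM in *vip3-1* and at 152, 145 and 207 CPM in WT, with WT replicate 3 above every other library (log2 fold change 0.17 ± 0.151, adjusted p = 0.407). Without WT replicate 3 both passed the threshold, *TIR1* at 0.49 (adjusted p = 0.0110) and *AFB5* at 0.35 (adjusted p = 0.0198). *AFB4* (AT4G24390), the closest relative of *AFB5*, was at 36.5, 36.9 and 39.1 CPM in *vip3-1* and at 35.3, 31.8 and 31.4 CPM in WT. These groups did not overlap, but the difference was not past the threshold (0.19 ± 0.072, adjusted p = 0.0856). In WT, *TIR1* had the highest level per length (89.6 ± 19.5 FPKM, SD, n = 3), followed by *AFB1* (73.5 ± 11.1), *AFB5* (71.8 ± 15.0), *AFB3* (43.7 ± 0.441), *AFB2* (38.3 ± 5.28) and *AFB4* (14.6 ± 1.26). Along this order the WT libraries separated only *AFB5* from *AFB3* and *AFB2* from *AFB4*. *AFB1* and *AFB3* overlap genes on the opposite strand, and 16.5% and 27.0% of their 50-base stretches also occur in other genes. For *AFB1* these are *AT4G04455*, a non-coding RNA gene, and *AT4G03180*, and for *AFB3* the non-coding RNA gene *AT1G04977*. The overlapping protein-coding genes *AT4G03180* (log2 fold change 0.04) and *AT1G12810* (−0.03) were tested and not called. Counts of *AFB1*, *AFB3* and *AFB4* (12.3% shared, with *AT4G24380*) are thus less certain. The strand setting of the counts is not given in the sources used here.

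The Aux/IAA genes covered a wide range of levels. *IAA9* and *IAA8*, relatives with long amino-terminal extensions, dominated the family. *IAA9* averaged 392 ± 14.6 FPKM in *vip3-1* and 304 ± 46.9 FPKM in WT, and *IAA8* averaged 372 ± 13.4 FPKM in *vip3-1* and 256 ± 15.7 FPKM in WT (SD, n = 3 each). Together they made up 59.6%, 61.4% and 60.0% of all Aux/IAA FPKM in *vip3-1* and 56.2%, 57.4% and 53.8% in WT, so that their share was higher in every *vip3-1* library. The next genes, *IAA26* and *IAA16*, were far lower, at 75.7 ± 16.7 and 59.5 ± 7.80 FPKM in WT. In the order of the mean over all 6 libraries, from *IAA26* down to *IAA4* (45.4 ± 6.39 FPKM in WT), no gene but *IAA4* itself had all WT libraries above those of the next gene. At the bottom, *IAA5*, *IAA6*, *IAA15* and *IAA34* had too few counts to be tested. *IAA6* never exceeded 3 counts in a library, and *IAA34*, at 0.195 ± 0.0893 FPKM in *vip3-1* and 0.424 ± 0.138 FPKM in WT, was the most abundant of these 4.

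**Figure D1:**
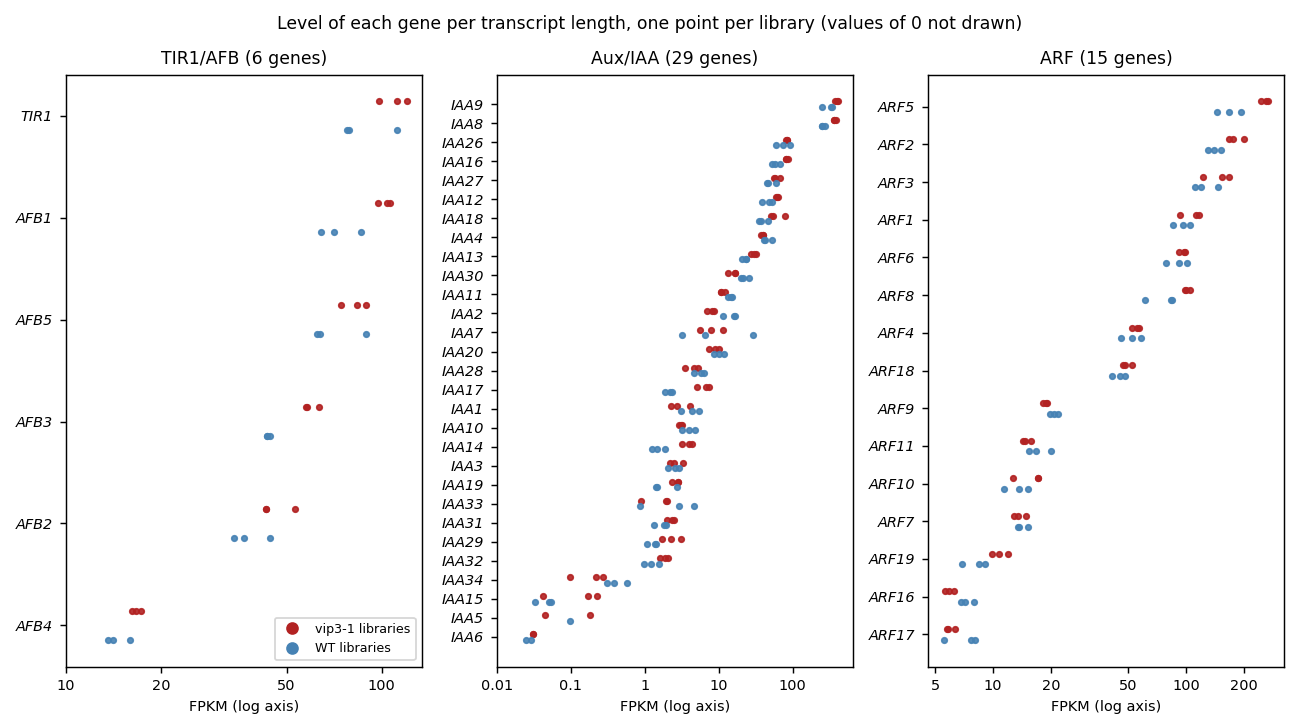
FPKM of all 50 genes on log axes, ordered within each family by the mean over the 6 libraries, with a point for each *vip3-1* library above and each WT library below the gene's line. *IAA9* and *IAA8* stand apart from all other Aux/IAA genes, whereas the ARF and receptor genes span narrower ranges.

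*IAA17* and *IAA14* rose the most, both at low level. *IAA17* (AT1G04250, AXR3), known from gain-of-function mutants with strong auxin phenotypes, was at 6.97, 4.65 and 6.05 CPM in *vip3-1* and at 2.15, 2.02 and 1.73 CPM in WT. The lowest *vip3-1* library was above the highest WT library, and it rose by 1.58 ± 0.202 on the log2 scale (adjusted p = 0.00397). *IAA14* (AT4G14550, SOLITARY-ROOT), known for its control of lateral root formation, was at 4.38, 4.12 and 5.19 CPM in *vip3-1* and at 1.93, 1.67 and 1.94 CPM in WT. It rose by 1.31 ± 0.173 (adjusted p = 0.00435), with no overlap. Both were called under all 14 alternative settings. Each lies next to another Aux/IAA gene on the chromosome, with no protein-coding gene in between and transcription in opposite directions. *IAA3* (SHY2) is 6388 bases from *IAA17* on chromosome 1 and was at 2.64, 2.44 and 2.21 CPM in *vip3-1* and at 2.41, 2.04 and 2.59 CPM in WT. These values overlapped (log2 fold change 0.05 ± 0.188, adjusted p = 0.843), and the sign turned without TMM normalization. *IAA1* is 10732 bases from *IAA14* on chromosome 4 and was at 2.13, 1.48 and 1.76 CPM in *vip3-1* and at 2.21, 2.04 and 3.499 CPM in WT. Its log2 fold change was −0.53 ± 0.283 (adjusted p = 0.193), on the other side of 0 from its neighbour.

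*IAA16* and *IAA7* are close relatives of these genes. *IAA16* (AT3G04730) was at 93.3, 88.8 and 94.0 CPM in *vip3-1* and at 76.2, 63.9 and 58.7 CPM in WT, a rise of 0.47 ± 0.103 (adjusted p = 0.0177). All *vip3-1* libraries were higher, and the call was lost without WT replicate 2 (adjusted p = 0.0598) or *vip3-1* replicate 1 (0.0673), 2 (0.0604) or 3 (0.0624). *IAA7* (AT3G23050, AXR2) had the widest spread within WT of all members. It was at 9.16, 6.03 and 12.3 CPM in *vip3-1* and at 3.67, 31.0 and 7.13 CPM in WT. WT replicate 2 was above every other library and WT replicate 1 below, with a range of 3.07 on the log2 scale within WT. The log2 fold change was −0.61 ± 0.755 (adjusted p = 0.557) and turned to 0.76 without WT replicate 2 (adjusted p = 0.204).

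*IAA8* and *IAA18* showed moderate rises with narrow spreads. *IAA8* (AT2G22670) was at 431, 452 and 450 CPM in *vip3-1* and at 312, 307 and 313 CPM in WT, and rose by 0.52 ± 0.070 (adjusted p = 0.00453), a call kept under all 14 alternatives. *IAA18* (AT1G51950), which acts in apical patterning of the embryo, was at 76.3, 74.8 and 69.4 CPM in *vip3-1* and at 46.4, 48.5 and 51.9 CPM in WT. It rose by 0.59 ± 0.072 (adjusted p = 0.00359). No library of either gene crossed into the range of the other genotype. In FPKM, *IAA18* stood at 78.5, 54.9 and 50.9 in *vip3-1* and at 46.4, 35.3 and 37.5 in WT. Replicate 1 of each genotype thus stood out in FPKM more than in CPM. The same was seen for *AFB2*, whereas *ARF1*, *ARF3* and *ARF10* stood lower in replicate 1 of each genotype in FPKM than in CPM. The difference thus varied by gene, and it also enters SDs of FPKM and the limma fits on FPKM. In FPKM sums replicate 1 compares best with replicate 1 of the other genotype.

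*IAA12* and *IAA13*, close relatives of each other, rose as well. *IAA12* (AT1G04550, BODENLOS), the known repressor of ARF5 in the embryo, was at 64.4, 66.3 and 62.8 CPM in *vip3-1* and at 55.3, 51.9 and 40.9 CPM in WT. WT replicate 3 was lowest, no WT library reached the *vip3-1* range, and the rise was 0.39 ± 0.117 (adjusted p = 0.0474). *IAA13* (AT2G33310) was at 28.0, 33.0 and 34.6 CPM in *vip3-1* and at 25.2, 22.7 and 25.7 CPM in WT, a rise of 0.38 ± 0.099 (adjusted p = 0.0311). Both calls are near the threshold and were lost without TMM normalization (0.29 and adjusted p = 0.0755 for *IAA12*, 0.28 and 0.0763 for *IAA13*). The call of *IAA12* was also lost with no filter on low counts (0.0701) and without WT replicate 2 (0.0843) or *vip3-1* replicate 1 (0.121), 2 (0.144) or 3 (0.103), and that of *IAA13* without WT replicate 1 (0.0655) or 2 (0.0873) or *vip3-1* replicate 2 (0.119) or 3 (0.102). Of the 50-base stretches of *IAA13*, 41.6% also occur in other genes, chiefly *AT2G33300* on the opposite strand, so its counts are less certain. The same holds for *IAA32* (49.3%), *IAA3* (33.8%) and *IAA10* (22.8%), none of which was called.

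Only *IAA2*, *IAA30* and *IAA11* fell among the Aux/IAA genes tested. *IAA2* (AT3G23030) was at 5.08, 5.18 and 6.18 CPM in *vip3-1* and at 9.37, 8.58 and 12.6 CPM in WT. Every *vip3-1* library was lower than every WT library, and the log2 fold change was −0.89 ± 0.176 (adjusted p = 0.0130). *IAA2* lies 12510 bases from *IAA7* on chromosome 3, again with opposite directions of transcription. *IAA30* (AT3G62100), one of the members without the degron core, was at 7.47, 8.81 and 7.26 CPM in *vip3-1* and at 11.1, 11.6 and 10.9 CPM in WT, and fell by 0.52 ± 0.106 on the log2 scale (adjusted p = 0.0149). *IAA11* (AT4G28640) was at 10.4, 9.77 and 9.96 CPM in *vip3-1* and at 12.4, 12.6 and 14.2 CPM in WT, and fell by 0.38 ± 0.090 on the log2 scale (adjusted p = 0.0236). Neither overlapped between genotypes. The call of *IAA2* was lost without *vip3-1* replicate 1 (adjusted p = 0.0553) or 2 (0.0619). That of *IAA30* was lost without WT replicate 2 (0.0515) or *vip3-1* replicate 1 (0.0550). That of *IAA11* was lost without WT replicate 2 (0.0532) or *vip3-1* replicate 1 (0.0622), 2 (0.0894) or 3 (0.0686).

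**Figure D2:**
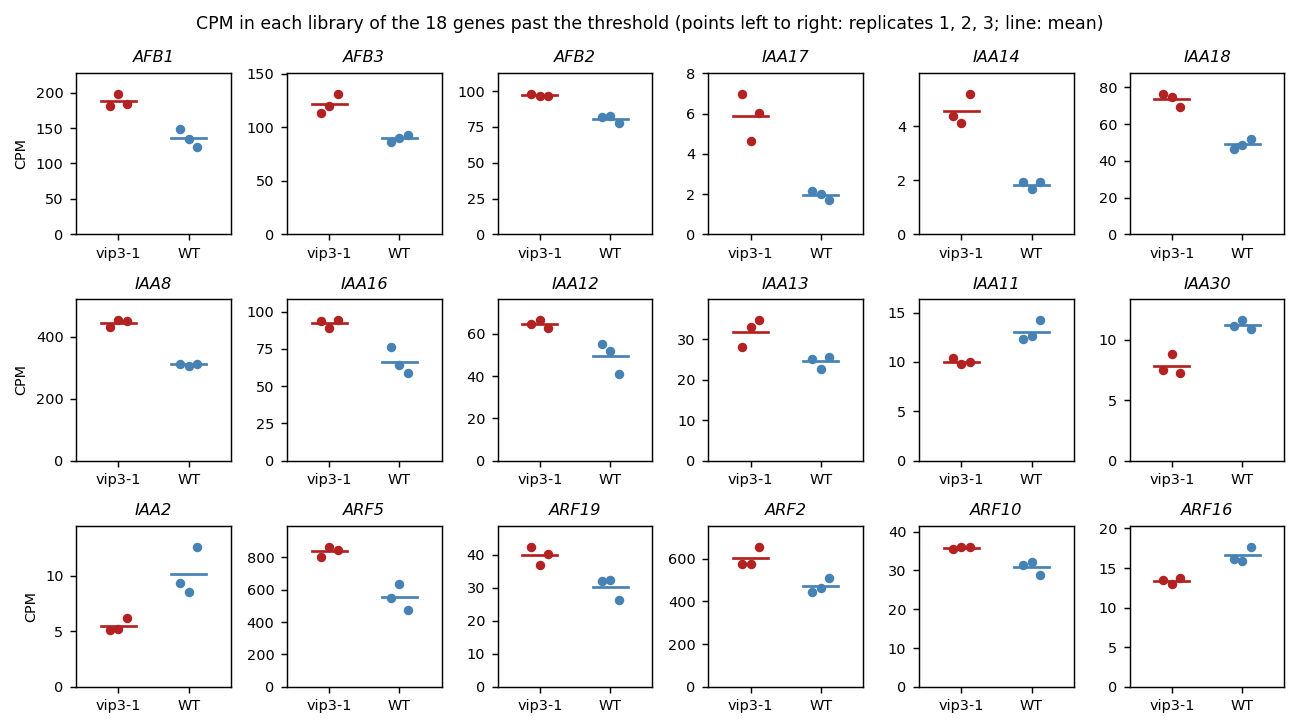
CPM in each library of the 18 genes past the threshold, with *vip3-1* left and WT right in each panel, the 3 replicates as points from left to right, a line for the mean and axes that start at 0. In every panel the libraries of the genotypes do not overlap, and 4 genes (*IAA11*, *IAA30*, *IAA2* and *ARF16*) are lower in *vip3-1*.

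Of the 25 Aux/IAA genes tested, 15 were not past the threshold, with log2 fold changes from −0.79 (*IAA33*) to 0.85 (*IAA29*). The most abundant of all, *IAA9* (AT5G65670), was at 542, 569 and 529 CPM in *vip3-1* and at 460, 462 and 356 CPM in WT. All *vip3-1* libraries were higher, by 0.36 ± 0.121 (adjusted p = 0.0640). *IAA9* was called when the replicate number entered as a block (adjusted p = 0.0343), in DESeq2 (0.0102) and without WT replicate 3, its lowest library (0.25, adjusted p = 0.0291). *IAA27*, a relative of *IAA8* and *IAA9*, stood at 0.24 ± 0.076 (adjusted p = 0.0566). It passed with the block (0.0354), in DESeq2 (0.0187) and without WT replicate 1 (0.0431). *IAA29* passed in DESeq2 alone (0.86, adjusted p = 0.035). *IAA26* was at 77.6, 92.8 and 94.3 CPM in *vip3-1* and at 71.5, 68.2 and 107 CPM in WT. Here WT replicate 3 was above every other library, and the log2 fold change was 0.10 ± 0.185 (adjusted p = 0.692). Without that library it was 0.34 (adjusted p = 0.0355). *IAA33*, which had the widest spread within *vip3-1* (1.22 on the log2 scale), was at 0.776, 0.709 and 0.313 CPM in *vip3-1* and at 1.16, 1.63 and 0.304 CPM in WT. Replicate 3 was low in both genotypes, and the difference did not pass (−0.79 ± 0.641, adjusted p = 0.372).

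Aux/IAA genes with the degron core had a median log2 fold change of 0.30 over 20 tested genes, of which 7 rose and 2 fell. The 5 tested genes without it had a median of −0.20, with no rise and 1 fall. The called shares were 45.0% and 20.0%, beside 30.7% of all genes tested. Summed over the 6 genes without the core, the level was 30.2, 31.7 and 28.9 FPKM in *vip3-1* and 40.4, 40.8 and 34.6 FPKM in WT. These sums were lower in every *vip3-1* library, whereas the sum over the 23 genes with the core was higher, at 1284, 1220 and 1204 FPKM in *vip3-1* and 1045, 955 and 893 FPKM in WT. Most of the sum without the core was *IAA30* and *IAA20*, at means of 22.3 and 10.2 of 38.6 FPKM in WT. *IAA31* (log2 fold change 0.39 ± 0.233) and *IAA32* (0.58 ± 0.261) were higher in every *vip3-1* library than in every WT library, though not called. *IAA8* and *IAA9* made up most of the sum with the core. The difference between these 2 sets of genes was not tested.

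Among the activator ARFs, *ARF5* and *ARF19* rose. *ARF5* (AT1G19850), also the most abundant of all ARF genes, was at 800.4, 866 and 846 CPM in *vip3-1* and at 552, 634 and 477 CPM in WT. The lowest *vip3-1* library was above the highest WT library, and *ARF5* rose by 0.60 ± 0.123 (adjusted p = 0.0151), a call lost without *vip3-1* replicate 2 (0.56, adjusted p = 0.0631). The gene that overlaps *ARF5* on the opposite strand, *AT1G19860*, fell, with a log2 fold change of −1.30. Of the 50-base stretches of the *ARF5* transcript, 0.0% occur in the transcript of any other gene, *AT1G19860* included. Reads of a shorter overlap cannot be assigned to either gene without a known strand setting. *ARF19* (AT1G19220), which acts with ARF7 in lateral root formation, was at 42.5, 37.0 and 40.2 CPM in *vip3-1* and at 32.1, 32.2 and 26.4 CPM in WT. It rose by 0.40 ± 0.101 (adjusted p = 0.0282) with no overlap. This call was lost without WT replicate 2 (adjusted p = 0.0501), without *vip3-1* replicate 1 (0.0948), 2 (0.0566) or 3 (0.0805), and without TMM normalization (0.31, adjusted p = 0.0530).

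*ARF8*, *ARF6* and *ARF7* were not called. *ARF8* (AT5G37020), which acts with *ARF6* in flower maturation, was at 280.0, 266 and 268 CPM in *vip3-1* and at 224, 227 and 168 CPM in WT. The groups did not overlap, with WT replicate 3 lowest, and the difference was just outside the threshold (0.40 ± 0.127, adjusted p = 0.0550). It passed with the replicate block (0.0381) and without WT replicate 3 (0.27, adjusted p = 0.0142). *ARF8* also passed in DESeq2 (adjusted p = 0.00993) and with at least 10 counts in every library (0.0497). *ARF6* (AT1G30330) was at 366, 346 and 370.4 CPM in *vip3-1* and at 386, 348 and 303 CPM in WT, a log2 fold change of 0.06 ± 0.105 (adjusted p = 0.671). *ARF7* (AT5G20730) was at 56.0, 54.0 and 61.8 CPM in *vip3-1* and at 55.3, 57.3 and 64.2 CPM in WT, a log2 fold change of −0.04 ± 0.087 (adjusted p = 0.728). For both of them the genotypes overlapped, and the sign turned without WT replicate 3 (−0.03 for *ARF6* and 0.02 for *ARF7*) and, for *ARF6*, without TMM normalization (−0.03).

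The repressor ARFs changed in both directions. *ARF2* (AT5G62000), which limits organ growth and promotes senescence, was at 576, 577 and 657 CPM in *vip3-1* and at 443, 465 and 509 CPM in WT. It rose by 0.35 ± 0.099 (adjusted p = 0.0376) with no overlap. The call was lost without any of the 6 libraries other than WT replicate 3 (adjusted p from 0.0904 to 0.116) and without TMM normalization (0.26, adjusted p = 0.101). *ARF3* (AT2G33860, ETTIN), which patterns the carpels, was at 326, 372 and 340.1 CPM in *vip3-1* and at 297, 328 and 270 CPM in WT, where WT replicate 2 lay within the *vip3-1* range (0.22 ± 0.101, adjusted p = 0.144). The other 5 repressors not targeted by miR160 (*ARF1*, *ARF4*, *ARF9*, *ARF11* and *ARF18*) had log2 fold changes between −0.24 (*ARF11*) and 0.16 (*ARF1*), none of them past the threshold. *ARF11* passed without WT replicate 3 (−0.33, adjusted p = 0.0221) and *ARF9* without TMM normalization (−0.25, adjusted p = 0.0483).

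The 3 genes with a miR160 site differed in direction. *ARF10* (AT2G28350) was at 35.6, 36.2 and 36.0 CPM in *vip3-1* and at 31.5, 32.3 and 28.9 CPM in WT, and rose by 0.22 ± 0.065 (adjusted p = 0.0476). *ARF16* (AT4G30080), which acts with *ARF10* in the root cap, was at 13.4, 13.0 and 13.7 CPM in *vip3-1* and at 16.2, 15.9 and 17.7 CPM in WT, and fell by 0.31 ± 0.077 on the log2 scale (adjusted p = 0.0269). Neither overlapped between genotypes. *ARF17* (AT1G77850) was at 12.6, 11.0 and 11.2 CPM in *vip3-1* and at 15.9, 14.9 and 10.8 CPM in WT. WT replicate 3 was below all *vip3-1* libraries (−0.26 ± 0.156, adjusted p = 0.236), and without it *ARF17* passed the threshold (−0.41, adjusted p = 0.0153). The call of *ARF10* was held by few settings. It was lost with the replicate block (adjusted p = 0.0523), without TMM normalization (0.12, adjusted p = 0.162), with no filter on low counts (0.0839) and without WT replicate 1 (0.0945) or 2 (0.0738) or *vip3-1* replicate 1 (0.116), 2 (0.140) or 3 (0.116). That of *ARF16* was lost without WT replicate 1 (0.0553) or 2 (0.0522) or *vip3-1* replicate 1 (0.0824), 2 (0.102) or 3 (0.0631).

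Activator and repressor ARFs were compared by their sums. The 5 activators summed to 473, 481 and 485 FPKM in *vip3-1* and to 378, 392 and 308 FPKM in WT, with no overlap and a ratio of the means of 1.34. The 10 repressors summed to 546, 622 and 640 FPKM in *vip3-1* and to 489, 561 and 530 FPKM in WT, where the ranges overlapped and the ratio was 1.14. Between libraries of the same number, however, the repressor sum was higher in *vip3-1* in all 3 pairs, as was that of the activators. The labels do not say that libraries of the same number belong together. Only *vip3-1* replicate 1 (546) lay below a WT library in the repressor sum. In replicate 1 of both genotypes, the repressors *ARF1*, *ARF3* and *ARF10* stood lower in FPKM than their CPM would give. *ARF3* was at 123, 168 and 154 FPKM in *vip3-1* (326, 372 and 340.1 CPM). In WT it was at 112, 147 and 120 FPKM (297, 328 and 270 CPM). No sums of CPM were made, and the part of this in the overlap was not tested. The median log2 fold change was 0.40 over the activators and 0.09 over the repressors. Of the activators 40.0% were called and of the repressors 30.0%, beside 30.7% of all genes tested. The ratio of activator to repressor FPKM was 0.867, 0.773 and 0.758 in *vip3-1* and 0.773, 0.699 and 0.581 in WT. It was higher in each *vip3-1* library than in the WT library of the same number, but WT replicate 1 lay within the range of the *vip3-1* libraries. The low FPKM of *ARF1*, *ARF3* and *ARF10* in replicate 1 of each genotype also enters this ratio, and none was made from CPM. Much of the activator sum was *ARF5*, at 51.7%, 55.6% and 53.9% in *vip3-1* and 44.5%, 49.6% and 47.2% in WT. The median of the activators rests on 5 genes, and the difference between the classes was not tested.

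**Figure D3:**
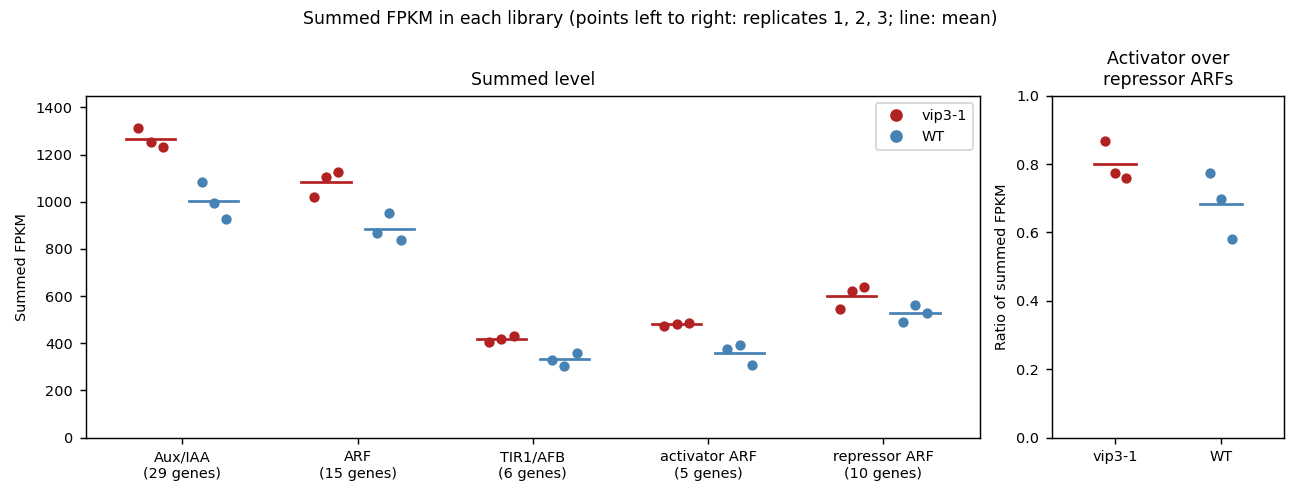
Left, FPKM summed over each family and ARF class in each library, *vip3-1* left of WT, with a line for the mean, and right, the ratio of activator to repressor ARF sums. The *vip3-1* libraries are above all WT libraries in every sum other than that of the repressor ARFs, and the ratios overlap, from 0.758 to 0.867 in *vip3-1* and from 0.581 to 0.773 in WT. Both overlaps are in FPKM, in which replicate 1 of each genotype is low for *ARF1*, *ARF3* and *ARF10* relative to CPM.

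In WT, the ARF genes ran from *ARF5* at 169 ± 24.6 FPKM, *ARF2* at 141 ± 11.3 FPKM and *ARF3* at 126 ± 18.5 FPKM (SD, n = 3 each) to *ARF16* at 7.30 ± 0.568 FPKM and *ARF17* at 7.11 ± 1.34 FPKM. The libraries of these top 3 overlapped in WT, whereas all WT libraries of *ARF3* were above those of the next gene, *ARF1* (95.7 ± 9.78 FPKM). In *vip3-1*, *ARF5* averaged 258 ± 11.9 FPKM, *ARF2* 181 ± 17.1 FPKM and *ARF3* 148 ± 23.5 FPKM, so that the lowest *ARF5* library (245) was above the highest *ARF2* library (200.3).

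Grouped by small RNA, 3 of the 4 genes with a miR393 site rose, beside 14.6% of all genes tested. The 4 genes had a median log2 fold change of 0.36. Their sums were 315, 317 and 324 FPKM in *vip3-1* and 251, 229 and 255 FPKM in WT, without overlap. Neither of the miR167 targets, *ARF6* and *ARF8*, was called. Of the 3 targets of the tasiR-ARF small RNAs made from TAS3 transcripts (*ARF2*, *ARF3* and *ARF4*), *ARF2* rose. The small RNAs themselves were not measured. Of 14 listed precursor genes (MIR160, MIR167, MIR393, MIR390 and TAS3), only the 3 TAS3 genes had enough counts to be tested. *TAS3B* was at 3.49, 1.56 and 2.04 CPM in *vip3-1* and at 1.33, 0.772 and 0.723 CPM in WT. It rose by 1.32 ± 0.403 (adjusted p = 0.0489), without overlap, and this call was lost without any library other than WT replicate 1 (adjusted p from 0.0679 to 0.150), without TMM normalization (adjusted p = 0.0556) and with no filter on low counts (0.0623).

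Promoters were searched for 2 forms of the auxin response element, TGTCTC and TGTCGG, on either strand, from 250 bases before to 50 after the annotated start. At least 1 of them was found in 16 of the 29 Aux/IAA genes (55.2%), in 3 of the 15 ARF genes (20.0%) and in 1 of the 6 receptor genes (16.7%). Among 27443 protein-coding genes the share was 18.7%. Matches were present in 5 of the 14 members that rose, in 1 of the 4 that fell and in 10 of the 28 that were tested and not called. *IAA17*, *IAA14* and *IAA2*, with the largest called changes, held none in this window, and the members not tested (*IAA5*, *IAA6*, *IAA15* and *IAA34*) all did. Windows of 30 bases around the element, in capitals, are shown for the called members, with the paralogues whose windows were most alike beside them.
IAA8 (chr2:9636158-9636187, plus strand): aaaagaataacaGAGACAaaaaaaagtcat
IAA12 (chr1:1240244-1240273, plus strand): caggtttgattaTGTCGGaagacaagtttt
IAA13 (chr2:14116172-14116201, minus strand): caagtttgataaTGTCGGgaagaaaagtta
IAA16 (chr3:1291037-1291066, minus strand): taaaaataatctCCGACAaaacactcttta
ARF19 (chr1:6633182-6633211, minus strand): aaaaaggtgggaCCGACAagaagaagacat
IAA30 (chr3:22995618-22995647, plus strand): ctttaacaacacTGTCTCatcattccacca
IAA20 (chr2:19307633-19307662, plus strand): tttagcggacgcTGTCTCatcattccaccg
GAGACA and CCGACA are the same elements read on the other strand. The windows of *IAA12* and *IAA13*, which both rose, were identical at 21 of 30 bases, and those of *IAA30*, which fell, and *IAA20* (log2 fold change −0.20 ± 0.174, adjusted p = 0.406) at 22. The closest windows of all were those of *IAA19* and *IAA6*, identical at 27 bases, of which *IAA19* was tested (0.48 ± 0.351, adjusted p = 0.326). A match of letters does not show that a factor binds there.

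Other genes of the auxin pathway were taken from lists by role, to be read beside the 14.6% of all genes that rose and the 16.1% that fell. For auxin synthesis, 3 of 6 tested genes rose and 1 fell, with a median log2 fold change of 0.73. *YUC4*, a flavin monooxygenase that makes auxin in young organs, was at 21.0, 21.3 and 20.0 CPM in *vip3-1* and at 7.67, 10.7 and 11.7 CPM in WT, and rose by 1.05 ± 0.158 (adjusted p = 0.00627). The aminotransferase gene *TAA1*, which provides the substrate of the YUC enzymes, rose by 0.87 ± 0.124 (adjusted p = 0.00535), and *YUC1* by 0.59 ± 0.165 (adjusted p = 0.0385). *YUC6* fell, with −1.16 ± 0.346 (adjusted p = 0.0464). The calls of *YUC1* and *YUC6* were lost under several settings. That of *YUC1* was lost without any library other than WT replicate 3 (adjusted p from 0.0792 to 0.132), without TMM normalization (0.49, adjusted p = 0.0719) and in the 3 limma fits (0.12 to 0.183). That of *YUC6* was lost without any library other than *vip3-1* replicate 1 (0.0651 to 0.132) and with no filter on low counts (0.0567).

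Among 13 transport genes, 6 rose and 1 fell, with a median of 0.50. The influx carrier gene *LAX3* was at 27.2, 23.8 and 20.1 CPM in *vip3-1* and at 6.88, 5.11 and 4.03 CPM in WT, and rose by 2.15 ± 0.216 (adjusted p = 0.00203). *PIN7* rose by 1.80 ± 0.081 (adjusted p = 0.000276). Both calls held with each library left out in turn. *PIN4* fell, with −1.72 ± 0.443 (adjusted p = 0.0297), a call lost without *vip3-1* replicate 1 (adjusted p = 0.0757), 2 (0.111) or 3 (0.0883).

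Of 7 tested GH3 genes, whose products conjugate auxin to amino acids, only *GH3.17* was called. It rose by 0.59 ± 0.113 (adjusted p = 0.0125; 0.0580 without *vip3-1* replicate 2), beside a list median of −0.24. With the replicate block 4 GH3 genes were called. Among 14 genes of the SCF ligase and the TPL co-repressors, 7 rose and 2 fell, with a median of 0.20. The rises included the SCF core genes *RBX1* (0.56 ± 0.073, adjusted p = 0.00404) and *CUL1* (0.43 ± 0.070, adjusted p = 0.00741), and *CAND1*, which exchanges F-box proteins on the ligase (0.47 ± 0.093, adjusted p = 0.0135; 0.0606 without *vip3-1* replicate 2). The co-repressor gene *TPR1* was at 109, 103 and 102 CPM in *vip3-1* and at 144, 139 and 128 CPM in WT, and fell by 0.39 ± 0.070 on the log2 scale (adjusted p = 0.0101). *ASK2* fell by 0.18 ± 0.054 on the log2 scale (adjusted p = 0.0494), a call lost with the replicate block (0.0536), with no filter on low counts (0.0889) and without any library other than WT replicate 3 (0.115 to 0.142).

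Genes reported as targets of ARF5 in the embryo or the flower meristem were listed separately. Of 12 tested, 6 rose and none fell, with a median of 0.47. *HB8*, a vascular transcription factor gene that is also among the vascular markers above, was at 40.6, 39.8 and 47.8 CPM in *vip3-1* and at 24.6, 20.2 and 16.1 CPM in WT, and rose by 1.07 ± 0.161 (adjusted p = 0.00627). *TMO3* rose by 0.82 ± 0.118 (adjusted p = 0.00543) and *DRNL*, a marker of incipient organs, by 0.75 ± 0.221 (adjusted p = 0.0442). The call of *DRNL* was lost without WT replicate 1 (adjusted p = 0.107) or *vip3-1* replicate 1 (0.127), 2 (0.135) or 3 (0.0686), without TMM normalization (0.65, adjusted p = 0.0542), with no filter on low counts (0.0559) and in the limma fits on log2(FPKM + 1), with a filter (0.0521) and without (0.0864). *LFY* and *ANT* are also in the list of shoot apex markers. In 20 genes of early auxin response (SAUR genes, *HAT2* and LBD genes), 6 had enough counts and 3 of these rose, namely *SAUR61* (1.41 ± 0.108, adjusted p = 0.00103), *LBD18* (0.79 ± 0.219, adjusted p = 0.0362) and *HAT2* (0.51 ± 0.106, adjusted p = 0.0156). The call of *LBD18* was lost with no filter on low counts (0.0505) and without WT replicate 1 (0.0967) or *vip3-1* replicate 1 (0.115), 2 (0.131) or 3 (0.0549), and that of *HAT2* without WT replicate 2 (0.0525) or *vip3-1* replicate 2 (0.0710) or 3 (0.0560).

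**Figure D4:**
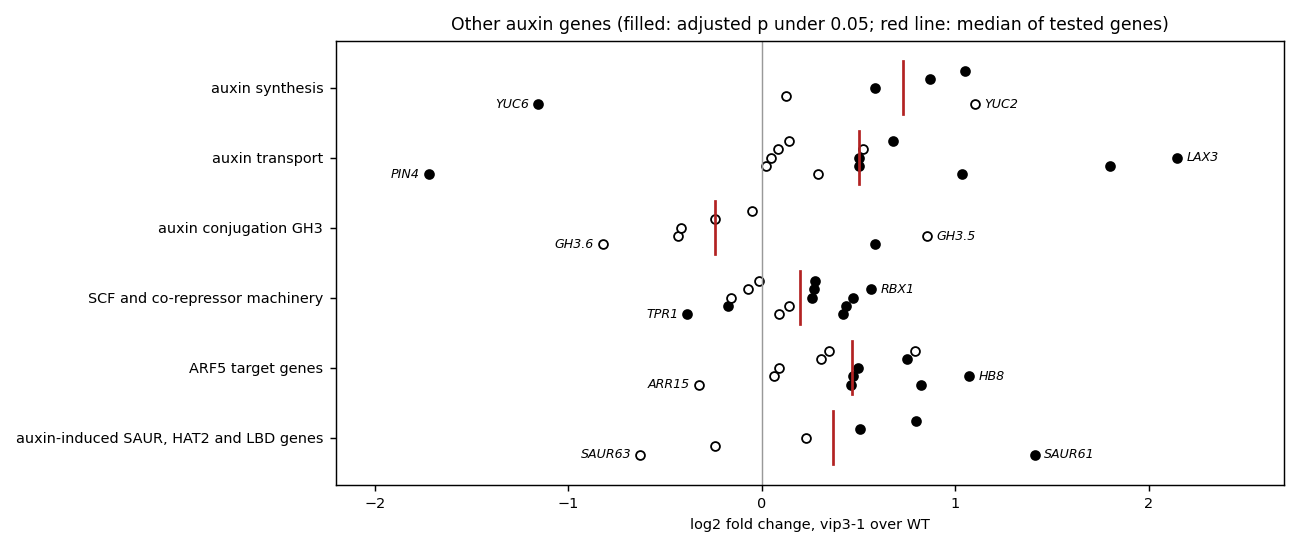
Log2 fold changes of *vip3-1* over WT for the tested genes of 6 auxin lists, with filled points for genes past an adjusted p of 0.05, red lines for the list medians and the extreme genes named. Medians are above 0 in all lists other than the GH3 genes (−0.24), and the transport genes span from −1.72 (*PIN4*) to 2.15 (*LAX3*).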

How the data were processed

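Per the labels and methods, the authors trimmed reads with Trimmomatic, mapped them to TAIR10 with TopHat2 2.0.6 and Bowtie2 2.0.5 and ran SAMtools 1.2 and Cufflinks 2.1.1. Strand setting and read layout are not given in the sources used here. The deposited estimated counts (1.47% not whole) are unscaled fragment numbers for each gene and were rounded before testing. The deposited FPKM values were scaled by the authors for transcript length and mapped fragments. The methods also name a normalization with Cufflinks, so these values may hold a further scaling between libraries. Their own comparison, deposited as a further table (mean FPKM, fold changes, test values) was not used.

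The test was edgeR 4.0.16 under R 4.3.3 (TMM, filterByExpr, quasi-likelihood F-test on genotype, Benjamini-Hochberg adjustment over 20690 genes, threshold 0.05). CPM use TMM library sizes. The standard error of a log2 fold change is its size over the root of F. The script was tested on simulated data. Libraries held 50040047 to 69033269 counts. The floor of 3 counts covers counting error only, whereas SDs and standard errors include the spread between libraries.

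Replicate numbers come from the labels. Deviations of same-numbered libraries from their genotype means correlated at 0.217, 0.190 and 0.367, so a fit with the number as a block is given where it changes a call, although *vip3-1* replicate 2 and WT replicate 1 correlated at 0.289. The 14 alternatives were this block, DESeq2 1.42.0, library sizes without TMM, no filter, at least 10 counts in every library, limma 3.58.1 on log2 FPKM (pseudocounts 1 and 0.1, and 1 without a filter) and each library left out. Members and lists were chosen with earlier results of these data known. Library values are given for called members, receptors, activator ARFs, the 3 most abundant members of each family and those with the widest spread, and for other lists up to 3 rises and 3 falls are named. Sequences are from RefSeq TAIR10.1, to which all 50 loci matched.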

Additional observations from a re-analysis of the deposited data

How the results depend on the processing

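All 18 called members kept their sign under the 14 alternatives, and 4 (*IAA8*, *IAA14*, *IAA17* and *AFB3*) were called in every one. With the replicate block, 7388 genes and 20 members were called, adding *IAA9*, *IAA27* and *ARF8* and losing *ARF10*, and it moved the GH3 count to 4. DESeq2 called 22 members, adding *IAA9*, *IAA27*, *IAA29* and *ARF8*, and 3 GH3 genes. Of these members 81.8% were higher, beside 50.3% of all genes that DESeq2 called. limma on log2(FPKM + 1), on log2(FPKM + 0.1) and on log2(FPKM + 1) without a filter called 3901, 4011 and 3297 genes. *IAA12*, *IAA18*, *ARF2*, *ARF10*, *ARF16*, *ARF19*, *AFB2*, *YUC1*, *PIN4*, *ASK2*, *LBD18* and *TAS3B* lost their call in all 3 of these fits, *DRNL* in both with log2(FPKM + 1), and *IAA11*, *IAA30*, *AFB1*, *YUC4*, *CAND1* and *HAT2* in the fit without a filter. They called 11, 11 and 8 members, 1, 1 and 1 ARF genes, 1, 1 and 1 activator ARFs and 0, 0 and 0 repressor ARFs. Without a filter, limma also called 6 Aux/IAA genes, 1 receptor, 2 synthesis genes, 4 SCF and co-repressor genes, 1 gene of early auxin response and 3 targets of ARF5, also 3 with the filter and log2(FPKM + 1). Library sizes without TMM gave 3 ARF genes and 1 activator ARF. Leaving out 1 library gave 2673 (without *vip3-1* replicate 2) to 8055 genes (without WT replicate 3), 6 to 25 members, 5 to 12 Aux/IAA, 0 to 8 ARF, 1 to 5 receptor, 0 to 3 activator and 0 to 5 repressor genes. In the other lists it gave 2 to 3 synthesis, 5 to 8 transport, 0 to 3 GH3, 4 to 10 SCF and co-repressor, 2 to 4 early response and 3 to 6 ARF5 target genes. The cause of these differences was not tested, other than that FPKM fits and fits without a library use other values or fewer samples. Members not called turned sign in 10 cases. Without TMM, *IAA3* was at −0.044, *ARF4* at −0.031 and *ARF6* at −0.032. Leaving out 1 library, *IAA3* ranged from −0.039 to 0.128 (negative without WT replicate 2 or *vip3-1* replicate 1), *IAA7* from −1.06 to 0.76 and *IAA26* from −0.017 to 0.34 (turned without WT replicate 2), and *ARF4* from −0.020 to 0.142, *ARF6* from −0.026 to 0.147 and *ARF7* from −0.113 to 0.023 (turned without WT replicate 3). The lowest counts limit *IAA5*, *IAA6*, *IAA15* and *IAA34*, for which no change was detectable at this depth.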
